A study of Mus musculus with 40 samples.

Results

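The genes described here encode the switch that lets a cell leave G1. They are the D-type cyclins Ccnd1, Ccnd2 and Ccnd3, the kinases Cdk4 and Cdk6, the Cip/Kip inhibitors Cdkn1a (p21), Cdkn1b (p27) and Cdkn1c (p57), the INK4 inhibitor Cdkn2c (p18) and the retinoblastoma gene Rb1. They were chosen by symbol through the Ensembl identifiers of the count table, and all 10 were found among its 49585 gene rows. They were followed over 4 blood progenitor populations of mouse bone marrow, from stem cells to early B cell-biased progenitors, in mice with and without the chromatin protein Mbd3.

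In G1 a D-type cyclin binds Cdk4 or Cdk6, and the active kinase phosphorylates the retinoblastoma protein, which then frees E2F factors to switch on the genes of DNA replication. INK4 inhibitors bind the kinases themselves, whereas Cip/Kip inhibitors bind cyclin-kinase complexes. Adult blood stem cells are mostly quiescent, and p57 and p27 are known for helping to hold them there, while Cdk6 is known as a kinase whose supply governs how readily they return to the cycle.

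Marrow came from the leg bones of 10 mice of the mixed strain C57BL6/129Ola, aged 46 to 51 days. In 5 Mbd3del mice both Mbd3 alleles were deleted (Mbd3_Del/Del), and in 5 control mice both alleles were floxed (Mbd3_Flox/Flox). Mbd3 is a subunit of the NuRD complex, which remodels and deacetylates chromatin; the sources used here do not say what drove the deletion or in which cells. Each mouse gave 1 sorted pool of each population, so each of the 8 groups held 5 libraries from 5 mice. The gate for stem cells (HSCs) was CD45+ CD150+ CD48- EPCR+. The other 3 populations shared a gate without lineage markers or B220 and with Sca-1, c-Kit and high Flt3. The interleukin 7 receptor was absent from the gate for LMPPs (lymphoid-primed multipotent progenitors). It marked both all-lymphoid progenitors (ALPs), which lacked Ly6D, and B cell-biased progenitors (BLPs), which carried it. An HSC pool held 150 cells and any other pool 100 by the sample labels, whereas the series text swaps these numbers.

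Libraries held 2974305 to 9082610 counts over genes. Levels are given as CPM, counts scaled to library size with TMM factors, and 3 counts in a library equal 0.341 to 1.02 CPM. The deleted gene followed the labels in each library: Mbd3 lay at 7.65 to 144 CPM in the 20 control libraries and at 0 to 2.96 CPM in the 20 Mbd3del libraries. Titles of the Mbd3del LMPP samples call them floxed, while their genotype and description fields give the deletion. Of the sorting markers Procr (EPCR) averaged 121 and 144 CPM in control and Mbd3del HSCs, Flt3 450.2 to 842 CPM in the other 6 groups, and Ly6d 8280 and 10589 CPM in the BLPs. Ly6d was not absent from the ALPs, gated as Ly6D-, at means of 83.3 and 279 CPM, and Ly6a (Sca-1) averaged 57.6 and 88.8 CPM there, with 0.730 CPM in 1 control library. Sex-linked transcripts of the control animals mouse10372 and mouse10381 went against their labelled sex in all their libraries. The LMPP and ALP libraries of mouse10372 also stood apart, with mean correlations to their groups of 0.739 and 0.722 against 0.779 to 0.874 elsewhere, so results that rest on these mice are given without them as well. Of the 10 genes, 8 share exon bases with another gene in the GRCm38 annotation (GENCODE M21), from 273 bases for Cdkn1a to 1100 for Ccnd1 with LTO1, and Cdkn1b and Cdkn2c share none. The Smart-seq2 protocol does not mark strand, so reads from these stretches cannot be told apart from those of the neighbour.

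**Figure D1:**
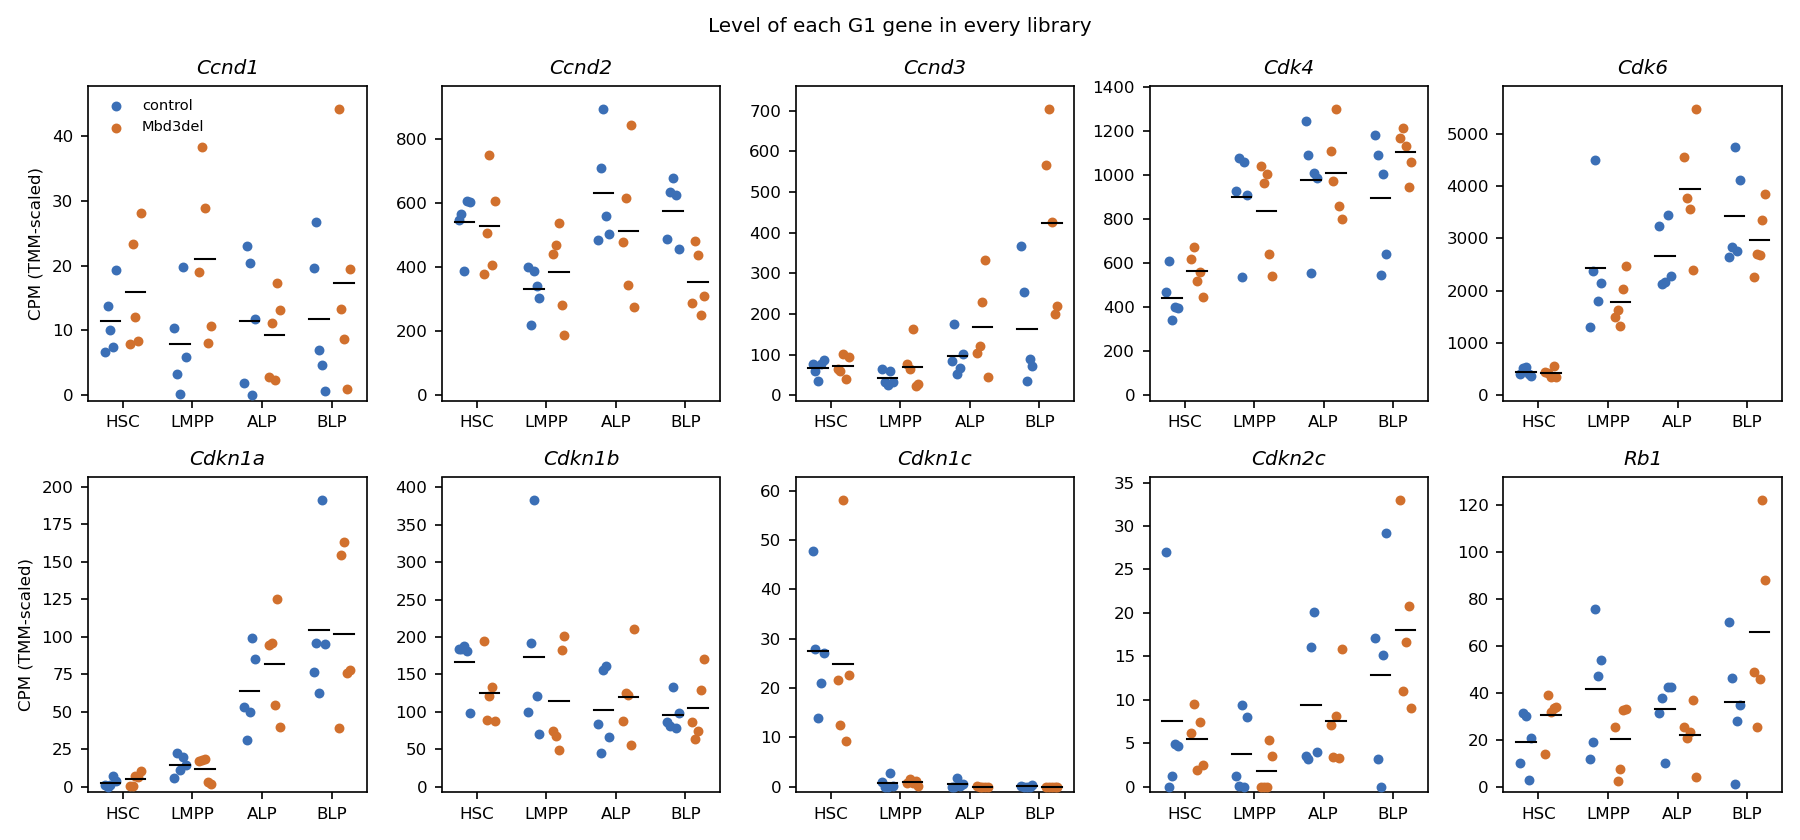
Level of each of the 10 genes in every library, in TMM-scaled CPM on a linear axis from 0, by population (x axis) and genotype (colour). Each point is 1 mouse and the black line is the mean of 5. Cdkn1c is present in the HSCs and nearly absent elsewhere, Cdk6 steps up between HSCs and LMPPs, and Cdkn1a climbs between LMPPs and ALPs.

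Cdk6 and Cdkn1c differed between HSCs and LMPPs in both genotypes, and Cdk6 and Cdkn1a again between LMPPs and ALPs of Mbd3del mice. Between control HSCs and LMPPs 3 of the 10 genes passed edgeR's quasi-likelihood test at a Benjamini-Hochberg adjusted p under 0.05: Cdk4 and Cdk6 were higher and Cdkn1c was lower. Of all genes tested in that comparison, 5.99% passed. In Mbd3del mice 2 of the 10 passed at this step, Cdk6 higher and Cdkn1c lower, against 6.74% of all genes. In both genotypes the HSC libraries alone carried Cdkn1c over the count filter, so its calls add nothing to its levels. From LMPP to ALP none passed in control mice, where 0.938% of all genes did; 3 had an unadjusted p under 0.05, against 7.89% of all genes, and DESeq2 called 2 (Ccnd2 and Cdkn1a), against 3.58% of the genes to which it gave an adjusted p. At that step 2 passed in edgeR in Mbd3del mice (Cdk6 and Cdkn1a, both higher), where 2.18% of all genes did. From ALP to BLP none passed edgeR's test or DESeq2's in either genotype, against 0.266% of genes in control and 0.636% in Mbd3del mice in edgeR, and 1.16% and 2.17% in DESeq2. At an unadjusted edgeR p under 0.05 there were 0 in control and 2 (Ccnd3 and Rb1) in Mbd3del mice, against 4.32% and 7.75% of all genes.

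Set end to end, HSC against BLP, 5 of the 10 genes passed in each genotype, against 15.7% of all genes in control and 19.3% in Mbd3del mice. Cdk4, Cdk6 and Cdkn1a were higher and Cdkn1c lower in the BLPs of both. The fifth gene in Mbd3del mice was Ccnd3, higher. In control mice it was Cdkn1b, lower, a call that was lost with the mouse as replicate block (edgeR adjusted p = 0.0654) and in a joint fit of all 40 libraries (0.192). Cdkn1c was carried over the count filter by the HSC libraries alone, and Cdkn1a by the LMPP or BLP libraries whenever HSCs were the other group. Both entered those tests through the group in which they were high, so their calls against HSCs add nothing to the levels themselves. Comparisons that share a population share its libraries, and the 2 genotypes share none.

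The libraries of the 2 populations compared did not overlap for Cdk6 and Cdkn1c from HSC to LMPP in both genotypes, against 9.16% of genes tested in control and 9.29% in Mbd3del mice. From LMPP to ALP this held for Ccnd2 and Cdkn1a in control mice (3.52% of genes) and for Cdkn1a in Mbd3del mice (4.89%); Cdkn1c was too low to be tested there. From HSC to BLP it held for Cdk6, Cdkn1a and Cdkn1c in control mice (16.7%), and for these and Ccnd3 and Cdk4 in Mbd3del mice (19.2%). From ALP to BLP it held for none of the 10 (1.43% of genes in control and 2.86% in Mbd3del mice).

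**Figure D2:**
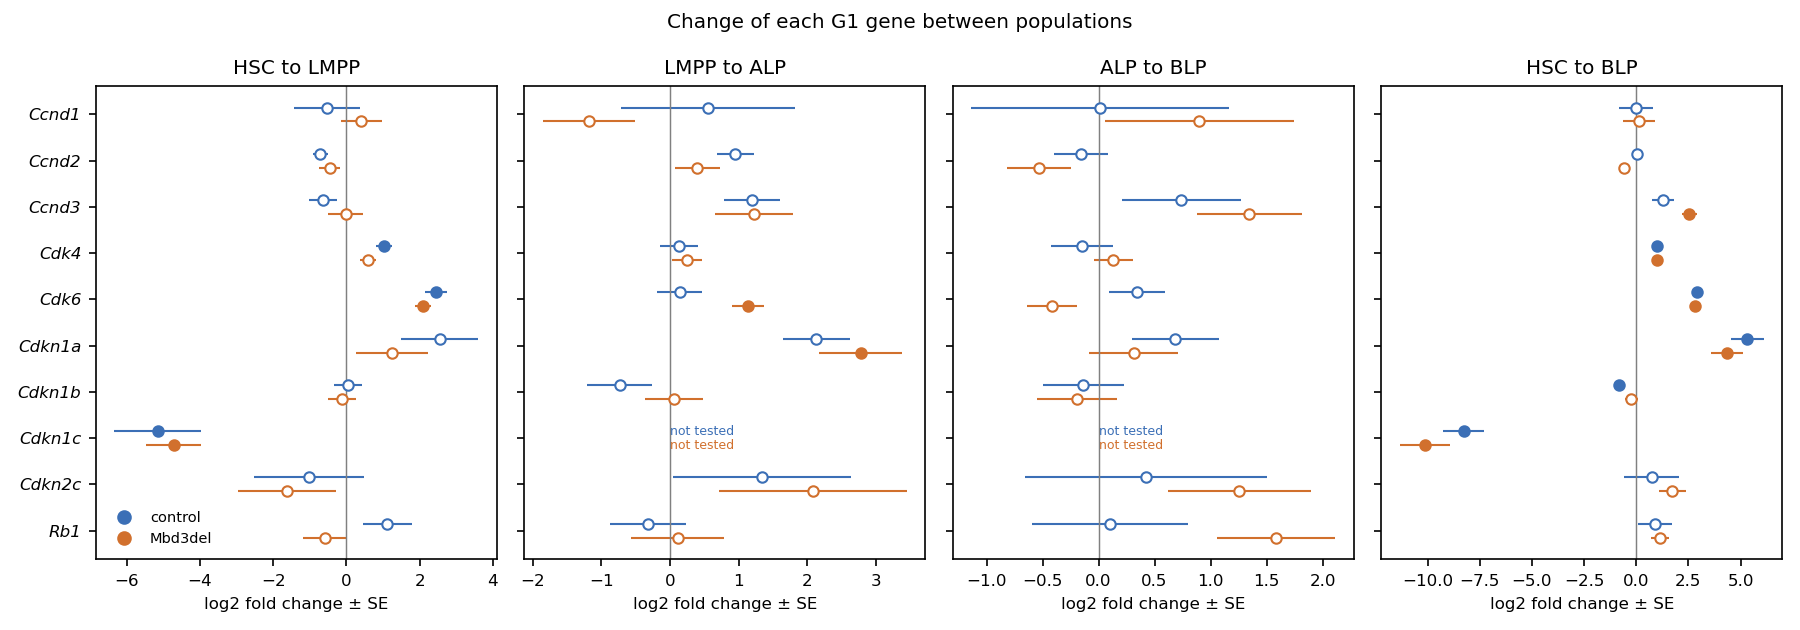
Log2 fold change between populations (x axis, later over earlier, with its standard error) for each gene, in control (blue) and Mbd3del mice (orange), from edgeR fits of 5 against 5 libraries; the 4 panels have different x scales. Filled points passed an adjusted p of 0.05. Cdk6 and Cdkn1c pass at the first step in both genotypes; the Cdkn1c values are fitted against groups with almost no counts and are not sizes.

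Among the D-type cyclins, which link outside signals to the kinases, Ccnd2 was the main transcript in most libraries and Ccnd1 was low throughout. Mean Ccnd3 was higher in BLPs than in HSCs of both genotypes, a difference that passed in Mbd3del mice. Ccnd2 lies at chr6:127125162-127152193 (minus strand, GRCm38). In control HSCs it measured 387, 545, 564, 603 and 607 CPM, and in control LMPPs 219, 303, 341, 387 and 398 CPM. The LMPPs lay lower with a slight overlap, at the lowest HSC library, that of mouse10372. The log2 difference was -0.71 ± 0.20 (SE), with an edgeR adjusted p of 0.0580, and -0.88 with an adjusted p of 0.0221 when mouse10372 was left out. Control ALPs then measured 485, 502, 559, 707 and 892 CPM, above all 5 LMPP libraries. That step, a log2 difference of 0.95 ± 0.27, had an edgeR adjusted p of 0.167. In control BLPs Ccnd2 stood at 575 ± 97.8 CPM (SD, n = 5), near its HSC mean of 541 ± 90.1 CPM.

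In Mbd3del mice Ccnd2 averaged 529 CPM in HSCs and 383 CPM in LMPPs, then 511 CPM in ALPs and 353 CPM in BLPs. All 5 of these mice had less in BLPs than in HSCs, a log2 difference of -0.58 ± 0.25 (edgeR adjusted p = 0.125). None of the steps passed the test, and neither did the difference between genotypes at any step, which for LMPP to ALP was -0.53 ± 0.43 on the log2 scale (edgeR adjusted p = 0.999).

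Ccnd3, the D-type cyclin known for its part in the growth of lymphocyte precursors, lies at chr17:47505051-47599691 (plus strand). In Mbd3del HSCs it measured 40.5, 59.0, 65.3, 94.0 and 101 CPM, and in Mbd3del BLPs 199.7, 219.8, 425, 566 and 705 CPM. No BLP library overlapped the HSC libraries, and the mean rose from 72.0 ± 25.2 to 423 ± 218 CPM (SD, n = 5). The log2 difference was 2.55 ± 0.38, an edgeR adjusted p of 0.000218. In control mice the BLPs spread far more widely, at 34.6, 71.9, 89.2, 255 and 366 CPM, against 34.4 to 85.8 CPM in their HSCs. Of the 5 control mice 4 had more Ccnd3 in BLPs than in HSCs, and the log2 difference of 1.27 ± 0.53 had an edgeR adjusted p of 0.133. Without mouse10372 and mouse10381 it was 1.71, with an adjusted p of 0.0449. Whether the genotypes differ over this span was not tested. At the single steps they differed by 0.63, 0.06 and 0.60 on the log2 scale, and none of these passed. In both genotypes all 5 mice had more Ccnd3 in ALPs than in LMPPs, with log2 differences of 1.19 ± 0.41 in control and 1.23 ± 0.57 in Mbd3del mice that did not pass the test (edgeR adjusted p = 0.352 and 0.465).

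Ccnd1 (chr7:144929931-144939925, minus strand) ranged from 0 to 44.2 CPM over the 40 libraries, and 1 control ALP library held none. Its group means lay between 7.89 and 21.1 CPM with SDs of 5.18 to 16.5 CPM. No step passed the test, and no population could be ordered against another.

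To set genes side by side, levels were divided by the merged length of all annotated exons, 9409 bases for Ccnd2 and 8775 for Ccnd3. The transcripts present can be shorter, so orders, shares and ratios of genes per kilobase, here and below, depend on this choice of length. On this scale Ccnd2 led the D-type cyclins in 37 of 40 libraries, and Ccnd3 lay above Ccnd1 in 39 of 40. In control HSCs Ccnd2 averaged 57.5 ± 9.58, Ccnd3 7.59 ± 2.33 and Ccnd1 2.44 ± 1.10 CPM per kilobase (SD, n = 5). The 3 libraries in which Ccnd3 led were all Mbd3del BLPs. There Ccnd3 made up 40.4% to 61.7% (median 50.1%) of the summed per-kilobase level of the 3 cyclins, against 5.10% to 42.7% (median 14.5%) in control BLPs. The highest control share lay within the Mbd3del range. These shares are a description, since they were picked after their values were seen.

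**Figure D3:**
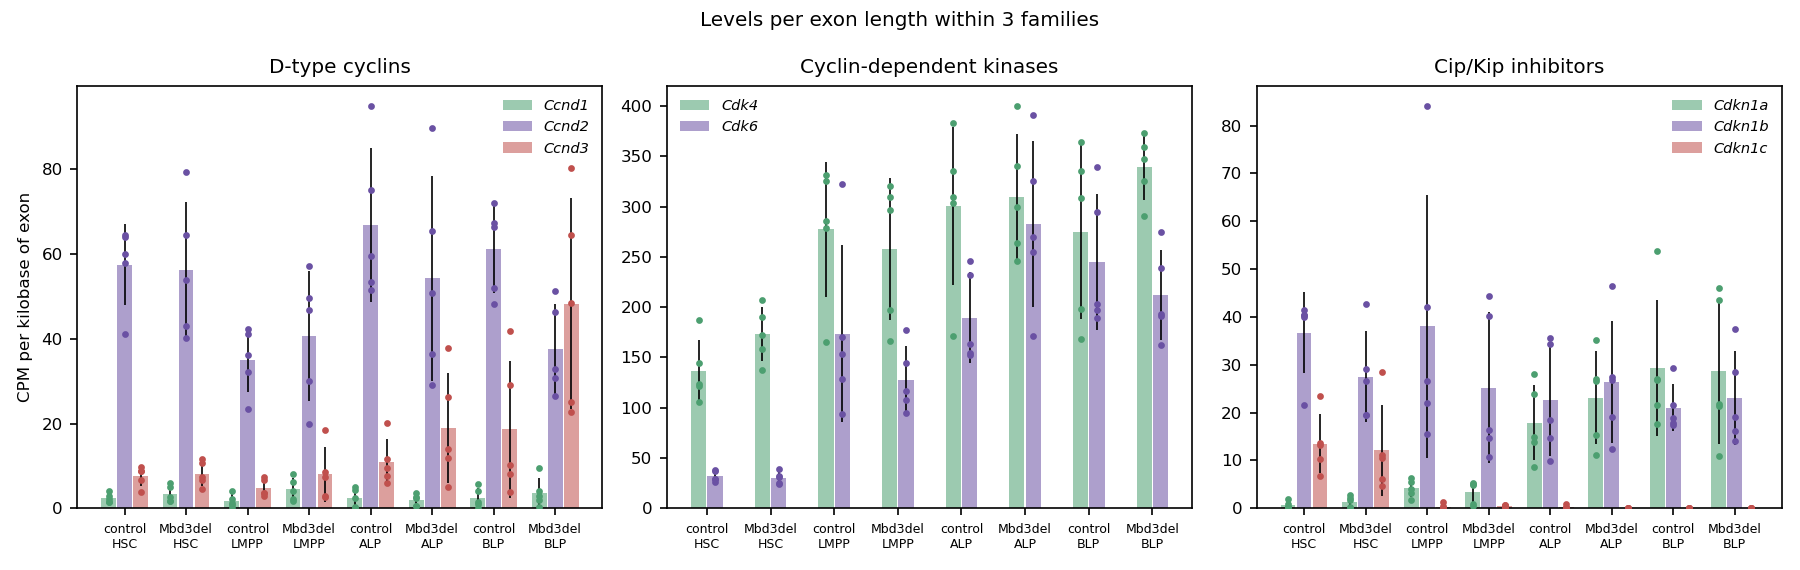
Levels per kilobase of merged annotated exons (y axis, from 0) of the D-type cyclins, the 2 kinases and the Cip/Kip inhibitors in each of the 8 groups. Bars are means of 5 libraries, lines are the SD and points are single libraries. Ccnd2 is the tallest cyclin except in Mbd3del BLPs, Cdk6 nears Cdk4 once cells leave the HSC state, and Cdkn1c is seen in HSCs only at this scale.

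Cdk6 (chr5:3341485-3531008, plus strand) showed the clearest step of the 10. Control HSCs measured 360, 409, 410, 515 and 533 CPM, and control LMPPs 1306, 1805, 2143, 2383 and 4506 CPM. Mbd3del HSCs measured 339, 353, 431, 451 and 552 CPM, and Mbd3del LMPPs 1320, 1502, 1636, 2027 and 2474 CPM. In both genotypes every LMPP library lay far above every HSC library. The log2 difference was 2.44 ± 0.29, a 5.43-fold higher level, in control mice (edgeR adjusted p = 0.000232). In Mbd3del mice it was 2.08 ± 0.22, or 4.23-fold (edgeR adjusted p = 3.09e-05). In pools of sorted cells a larger share of cells with a transcript and more RNA per cell cannot be told apart.

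Later changes in Cdk6 were smaller. In control mice the mean went from 2428 ± 1230 CPM in LMPPs to 2654 ± 636 in ALPs and 3425 ± 951 in BLPs (SD, n = 5), with overlapping libraries and no call. In Mbd3del mice it rose again to the ALPs, which measured 2400, 3563, 3769, 4558 and 5477 CPM. All 5 mice went up, the ALP and LMPP libraries overlapped by 1 library, and the log2 difference was 1.13 ± 0.23 (edgeR adjusted p = 0.0189). That call was lost when mouse10360, mouse10361 or mouse10365 was left out, with adjusted p of 0.174, 0.116 and 0.0730. The step differed from that in control mice by 1.0 ± 0.40 on the log2 scale, an unadjusted p of 0.0203 and an edgeR adjusted p of 0.999. Mbd3del BLPs measured 2266 to 3847 CPM, lower than the ALPs in 4 of 5 mice, a log2 difference of -0.41 ± 0.22 that did not pass (edgeR adjusted p = 0.740).

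Cdk4, the other partner of the D-type cyclins, lies at chr10:127063534-127067920 (plus strand). In control mice it was 2.04-fold higher in LMPPs than in HSCs, and no later step passed. Control HSCs measured 343, 395, 402, 468 and 607 CPM, and control LMPPs 537, 907, 929, 1057 and 1078 CPM. Every control mouse went up, and only the LMPP library of mouse10372 fell within the HSC range. The log2 difference was 1.03 ± 0.23 (edgeR adjusted p = 0.0158), and the call was lost without mouse10357, mouse10380 or mouse10381 (adjusted p = 0.0635, 0.103 and 0.0862). In Mbd3del mice HSCs measured 446 to 673 CPM and LMPPs 539.9 to 1042 CPM. All 5 mice were higher in LMPPs, but the log2 difference of 0.58 ± 0.22 did not pass (edgeR adjusted p = 0.154). By the BLPs the rise was 0.98 ± 0.24 in control and 0.98 ± 0.18 in Mbd3del mice, with edgeR adjusted p of 0.00979 and 0.0011. The control call was lost without mouse10357 or mouse10380 (adjusted p = 0.0569 and 0.0593).

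The animal mouse10372 had the lowest Cdk4 of the control mice in its LMPP, ALP and BLP libraries, at 537, 555 and 547 CPM. In LMPPs the same mouse had the highest Cdk6, 4506 CPM, and the highest Cdkn1b, 383 CPM, and it is the mouse whose LMPP library correlated least with its group.

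Per kilobase, Cdk4 exceeded Cdk6 in 35 of 40 libraries, but by very different margins. This order rests on merged exon lengths of 3249 bases for Cdk4 and 13989 for Cdk6. The ratio of Cdk4 to Cdk6 was 2.77 to 5.08 (median 4.73) in control HSCs and 4.37 to 6.72 (median 5.90) in Mbd3del HSCs. In control BLPs it was 0.496 to 1.92 (median 1.56), and in Mbd3del ALPs 0.628 to 1.57 (median 1.11). The HSC ratios of each genotype lay above those of its own ALPs and BLPs without overlap. In LMPPs the ratio was 0.513 to 3.06 (median 1.95) in control mice, overlapping that of the HSCs, and 0.940 to 3.28 (median 2.53) in Mbd3del mice, below it.

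The RefSeq promoter table (GRCm38.p6) held windows for 6 of the 10 genes. In the 247 bases that end 3 bases before its start, Cdk4 held 4 copies of CACGTG, the E-box that MYC and its partner MAX can bind. They begin 172, 118, 98 and 11 bases before the start, and 5.95% of all 32851 windows of this length hold the motif at least once. The window is shown because Cdk4 and Myc were both higher in control LMPPs than in HSCs; capitals mark CACGTG, which reads the same on both strands.
Cdk4, chr10:127063285-127063531, plus strand, GRCm38.p6: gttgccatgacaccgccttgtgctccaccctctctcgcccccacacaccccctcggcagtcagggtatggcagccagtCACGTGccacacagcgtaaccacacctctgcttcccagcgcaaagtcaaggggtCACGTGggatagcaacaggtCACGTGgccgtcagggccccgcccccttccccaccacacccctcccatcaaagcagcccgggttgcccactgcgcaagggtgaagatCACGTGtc
Myc itself went from a mean of 362 CPM in control HSCs to 866 CPM in LMPPs, a log2 difference of 1.26 ± 0.18 (edgeR adjusted p = 0.000876), and from 406 to 1035 CPM in Mbd3del mice (1.36 ± 0.21, adjusted p = 0.00108). Its relative Mycn went the other way, from 252 to 48.9 CPM in control mice and from 296 to 88.3 CPM in Mbd3del mice. Cdk6 held 1 CACGTG, 220 bases before its start. A match is a stretch of letters and not a binding site, and binding was not tested.

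The Cip/Kip inhibitors parted ways: Cdkn1c was many times higher in the stem cells than elsewhere, Cdkn1a was nearly absent from them and high in ALPs and BLPs, and Cdkn1b averaged 167 CPM in HSCs and 95.8 CPM in BLPs of control mice, a difference whose call hung on the fit. Cdkn1c (chr7:143458339-143461050, minus strand), the p57 gene, measured 13.9, 21.0, 27.1, 27.9 and 47.8 CPM in control HSCs and 9.34, 12.5, 21.6, 22.5 and 58.0 CPM in Mbd3del HSCs. In the LMPPs it lay between 0 and 2.71 CPM in control and between 0.188 and 1.62 CPM in Mbd3del mice. No LMPP library reached the lowest HSC library of either genotype. Summed over 5 libraries, 820 counts in control HSCs stood against 25 in LMPPs, a ratio of 42.7 after scaling by library totals (95% interval 28.7 to 66.3, counting error only). In Mbd3del mice 824 counts stood against 32, a ratio of 31.5 (22.1 to 46.3). The edgeR adjusted p at this step was 0.0197 in control and 0.00116 in Mbd3del mice. Without mouse10372 and mouse10381 the control value was 0.0909, and without mouse10357, mouse10358 or mouse10381 alone it was 0.106, 0.0512 and 0.0877. These p-values add nothing to the levels, since the HSC libraries alone carried Cdkn1c over the count filter.

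Fewer Cdkn1c counts were found in the later populations. Control ALPs held 12 counts in all and control BLPs 2, which puts HSCs 86.7 times (49.3 to 168) and 488 times (135 to 4035) higher. Of the 12 ALP counts 7 came from mouse10372. Mbd3del ALPs held 1 count, in mouse10360, a ratio of 1132 (203 to 44753), and Mbd3del BLPs none, so HSCs were at least 319-fold higher than these BLPs, taken against 3 counts over the group. All BLP libraries held 0 or 1 count.

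Cdkn1a (chr17:29090976-29100727, plus strand), the p21 gene and a known target of p53, took the opposite course. Control HSCs measured 0, 0.933, 1.26, 3.47 and 6.94 CPM and control LMPPs 6.08, 11.1, 14.2, 19.6 and 22.7 CPM. Control ALPs measured 31.0, 49.6, 53.3, 85.0 and 99.4 CPM and control BLPs 62.7, 76.8, 95.2, 96.1 and 191 CPM. Each of the 5 control mice was higher at each of the 3 steps, and the LMPP and ALP libraries did not overlap. The LMPP to ALP step had a log2 difference of 2.13 ± 0.49 and an edgeR adjusted p of 0.0591, which did not pass. From HSC to BLP the log2 difference was 5.32 ± 0.80 (edgeR adjusted p = 0.000318). The BLP libraries carried Cdkn1a over the count filter there, so this p-value adds nothing to the levels.

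In Mbd3del mice Cdkn1a measured 1.70, 3.36, 17.4, 17.9 and 18.5 CPM in LMPPs and 39.6, 54.6, 94.7, 96.0 and 125 CPM in ALPs. The groups did not overlap, and the log2 difference of 2.78 ± 0.60 passed (edgeR adjusted p = 0.0255). It was lost without mouse10360, mouse10361 or mouse10376, with adjusted p of 0.118, 0.0922 and 0.0849. The 2 genotypes differed at this step by 0.67 ± 0.76 on the log2 scale (edgeR adjusted p = 0.999), so a pass in one and not in the other marks no difference between them. Mbd3del HSCs measured 0.163 to 10.2 CPM and Mbd3del BLPs 39.1 to 163 CPM, a log2 difference of 4.33 ± 0.77 (edgeR adjusted p = 0.000921). This p-value too adds nothing to the levels, since the BLP libraries carried Cdkn1a over the count filter.

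Cdkn1a has 2 starts in the RefSeq table, and the window before the upstream one holds 2 matches to the p53 consensus decamer, beginning 73 and 51 bases before the start. Matches on either strand were counted, and 7.03% of all windows of this length hold at least 1. The window, which ends 3 bases before the start, is shown because Cdkn1a had the largest log2 rise of the 10 genes from HSC to BLP in both genotypes; capitals mark the matches.
Cdkn1a, chr17:29090729-29090975, plus strand, GRCm38.p6: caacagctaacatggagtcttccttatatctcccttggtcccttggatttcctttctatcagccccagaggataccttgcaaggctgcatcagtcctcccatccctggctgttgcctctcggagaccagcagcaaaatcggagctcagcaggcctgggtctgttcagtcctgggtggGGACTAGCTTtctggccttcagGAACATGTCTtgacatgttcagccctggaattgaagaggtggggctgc
Trp53, the gene of p53, passed at the HSC to LMPP step in Mbd3del mice, from 276 to 482 CPM (log2 difference 0.81 ± 0.20, edgeR adjusted p = 0.0197). Cdkn1a did not pass at that step in these mice, with a log2 difference of 1.25 and a higher level in LMPPs in 3 of 5. From LMPP to ALP, where Cdkn1a passed in them, Trp53 did not. The difference between genotypes in Trp53 did not pass at any of the 3 steps, and its part in the Cdkn1a levels was not tested.

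Cdkn1b (chr6:134920401-134925513, plus strand), the p27 gene, measured 98.3, 182, 184, 184 and 188 CPM in control HSCs and 79.0, 81.4, 86.3, 98.6 and 134 CPM in control BLPs. Of the HSC libraries 4 lay close together above every BLP library, and that of mouse10381 lay among the BLPs. The log2 difference was -0.83 ± 0.24 (edgeR adjusted p = 0.0295), and besides the fits named above it was not passed without mouse10357, mouse10358 or mouse10380 (0.123, 0.133 and 0.126). Mbd3del mice went from 125 ± 43.2 CPM in HSCs to 105 ± 44.6 in BLPs (SD, n = 5), a log2 difference of -0.24 ± 0.31 (edgeR adjusted p = 0.658). No single step passed in either genotype.

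Per kilobase, Cdkn1b was the highest of the 3 inhibitors in 30 of 40 libraries. It led in all 5 control HSC libraries, at 36.7 ± 8.48 against 13.5 ± 6.20 for Cdkn1c and 0.709 ± 0.782 CPM per kilobase for Cdkn1a (SD, n = 5). It led in only 1 of 5 control BLP libraries, where Cdkn1a averaged 29.4 ± 14.2 and Cdkn1b 21.1 ± 4.95 CPM per kilobase. In Mbd3del BLPs it led in 3 of 5.

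Cdkn2c (chr4:109660876-109667189, minus strand), the INK4 inhibitor of the set, was low and uneven. Control HSCs measured 0, 1.26, 4.70, 4.93 and 27.1 CPM, so that the library of mouse10357 lay far above the other 4. Control BLPs ranged from 0 to 29.2 CPM. Mbd3del BLPs were more even, at 9.07, 11.0, 16.6, 20.8 and 32.9 CPM, against 1.90 to 9.49 CPM in Mbd3del HSCs. All 5 Mbd3del mice were higher in BLPs, with a log2 difference of 1.74 ± 0.66 that did not pass in edgeR (adjusted p = 0.0849) and did in DESeq2 (1.73, adjusted p = 0.0122). In LMPPs it was listed at 0 in 3 of 5 Mbd3del libraries and was too low to be tested between genotypes.

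Rb1 (chr14:73183673-73325822, minus strand), whose product the cyclin D kinases inactivate, ranged from 0.980 to 122 CPM. Its mean in control mice was lowest in HSCs, at 19.0 CPM, and 32.9 to 41.4 CPM in the other populations, each with an SD of 12.6 to 26.1 CPM, and no step passed. Mbd3del libraries measured 4.01, 20.7, 23.4, 25.3 and 36.8 CPM in ALPs and 25.4, 45.7, 48.6, 88.1 and 122 CPM in BLPs. All 5 Mbd3del mice rose between them, with a log2 difference of 1.59 ± 0.53, an unadjusted p of 0.00906 and an edgeR adjusted p of 0.355.

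No member passed between Mbd3del and control mice in any population. In HSCs 10 were tested, in LMPPs 8, in ALPs 9 and in BLPs 9; Cdkn1c was too low outside the HSCs and Cdkn2c in LMPPs. The share of all genes that passed was 0.0176% for HSCs, 0.0183% for LMPPs, 0.0182% for ALPs and 0.0743% for BLPs, so at this background a count of 0 is no result about these genes. At an unadjusted p under 0.05 there were 2, Ccnd2 and Ccnd3 in BLPs, where 8.31% of all genes lay under it, and 0 in HSCs (4.11%), LMPPs (5.19%) and ALPs (2.3%). Under each alternative tried the count stayed at 0. In DESeq2, one of them, the share of genes called was 0.307% for HSCs, 0.802% for LMPPs, 0.244% for ALPs and 1.98% for BLPs. In the 3 tests of whether a step differed between genotypes, none of 28 tests on the members passed in edgeR or DESeq2, and 2 had an unadjusted p under 0.05, both of Cdk6. No gene at all passed in edgeR, where 645, 552 and 489 genes (5.13%, 4.51% and 4.03%) had an unadjusted p under 0.05, and 35, 20 and 13 (0.256%, 0.151% and 0.0518%) passed in DESeq2.

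The members with the smallest unadjusted p between genotypes were Ccnd3 and Ccnd2 in the BLPs. The largest log2 difference was that of the low Ccnd1 in LMPPs, 1.42 ± 0.87 (edgeR adjusted p = 0.937). Ccnd3 measured 199.7 to 705 CPM in Mbd3del against 34.6 to 366 CPM in control BLPs, a log2 difference of 1.39 ± 0.54 (unadjusted p = 0.0230, edgeR adjusted p = 0.481). Ccnd2 measured 249, 288, 309, 437 and 481 CPM against 454, 488, 624, 632 and 677 CPM, a log2 difference of -0.69 ± 0.20 (unadjusted p = 0.00433, edgeR adjusted p = 0.305). For Ccnd3 the 2 highest control libraries lay within the Mbd3del range, and for Ccnd2 the highest Mbd3del library lay within the control range. Without mouse10372 and mouse10381 the Ccnd3 difference was 0.87 and the Ccnd2 difference -0.69. The summed level of the plasmacytoid dendritic markers Siglech and Bst2 was also higher there, at 628 to 1784 CPM in Mbd3del and 296 to 863 CPM in control BLPs, with neither gene at 0; its part in these gaps was not tested. Genes of S phase and mitosis lay higher there as well: all 24 of a list of 24 had a log2 difference above 0, with a median of 0.79 against -0.03 for all genes. Of them 1 passed, Rrm2, a subunit of the enzyme that makes deoxynucleotides, at a mean of 645.8 CPM in Mbd3del and 239.8 CPM in control BLPs (1.44 ± 0.22, edgeR adjusted p = 0.0384). The count of 1, where 0.0743% of all genes passed, was 0 without mouse10372 and mouse10381 and in a joint fit of all 40 libraries. Over all alternatives other than leaving out 1 mouse it ranged from 0 to 7. With a single mouse left out it was 6 without mouse10357, 1 without mouse10376 and 0 without any other. The part of these genes in the cyclin gaps was not tested either.

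In HSCs the differences of Cdk6 and Cdkn1c were smaller than their errors and those of Cdk4 and Cdkn1b larger, and none passed. Cdk6 differed by -0.07 ± 0.20 and Cdkn1c by -0.15 ± 0.52 on the log2 scale, Cdk4 by 0.34 ± 0.20 and Cdkn1b by -0.42 ± 0.26 (edgeR adjusted p of 0.955 to 0.983). These values do not show that the genotypes are alike, and the errors of Cdkn1a and Cdkn2c, 1.22 and 1.11 on the log2 scale, were wider still.

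**Figure D4:**
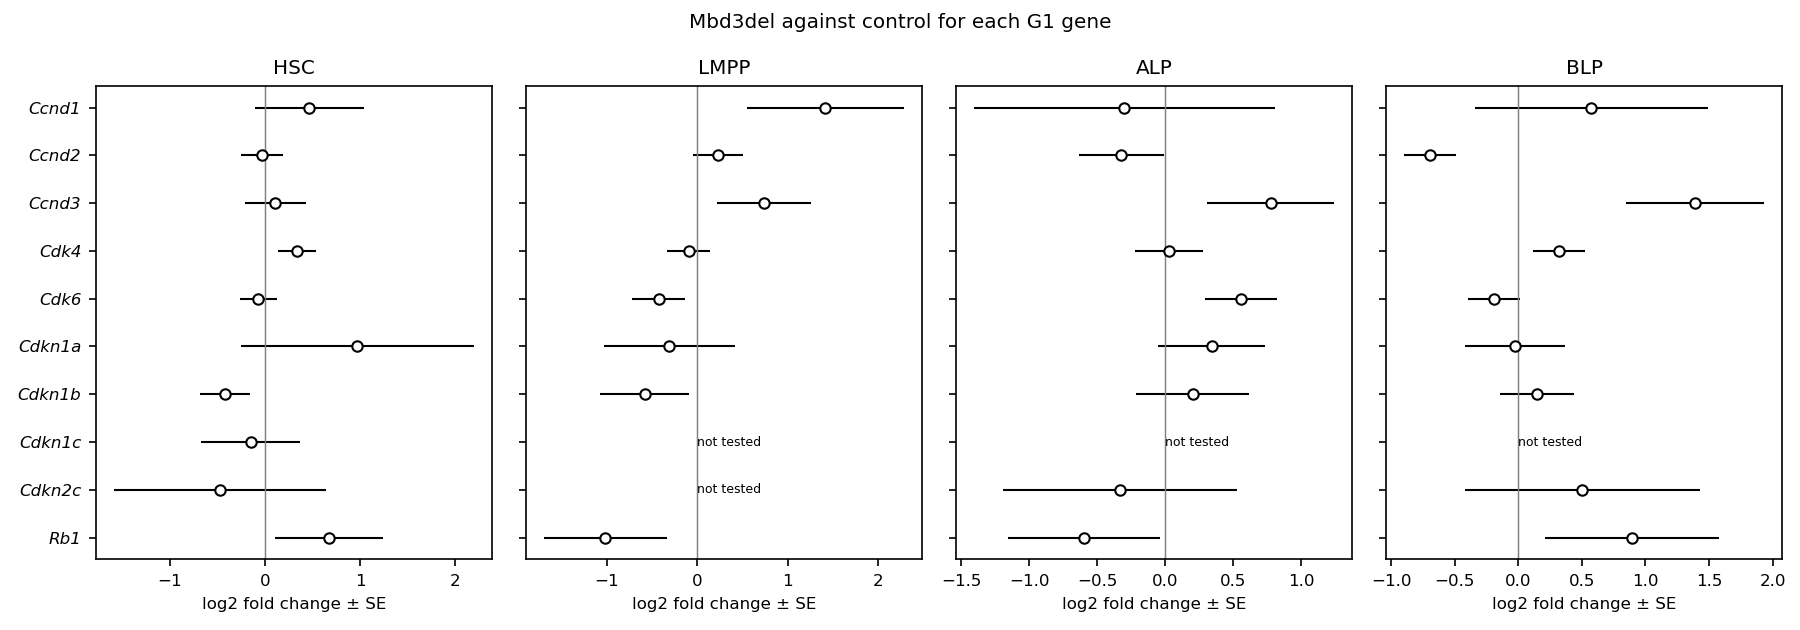
Log2 fold change of Mbd3del over control (x axis, with its standard error) for each gene in each population, from edgeR fits of 5 against 5 libraries; the panels have different x scales. All points are open because none passed an adjusted p of 0.05. In BLPs Ccnd2 lies below 0 and Ccnd3 above it.

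Genes that act after the G1 switch were higher at the step where Cdk4 and Cdk6 were. Of 24 genes of S phase and mitosis, all 24 had a log2 difference above 0 from control HSCs to LMPPs, and 20 passed. Among all genes tested there, 5.99% passed. The median log2 difference of the list was 2.18 against -0.0039 for all genes. Top2a, which untangles DNA, went from a mean of 27.8 to 262 CPM (log2 difference 3.23 ± 0.27, edgeR adjusted p = 1.36e-05), and the replicative helicase subunit Mcm6 from 304 to 915 CPM (1.59 ± 0.22, adjusted p = 0.000593). The count of 20 was 10 to 19 when 1 mouse was left out and 12 without mouse10372 and mouse10381. Over all alternatives other than leaving out 1 mouse it ranged from 12 to 24. In Mbd3del mice 8 of the 24 passed, all higher, where 6.74% of all genes passed, with a median of 1.60 against -0.04. The count of 8 was 5 to 12 when 1 mouse was left out and 8 to 15 over the other alternatives. Steps after the LMPP brought no pass in control mice and 1 at each step in Mbd3del mice, again Rrm2. Among all genes, 0.938% and 0.266% passed at these steps in control mice, and 2.18% and 0.636% in Mbd3del mice. No gene of this list passed a test of a difference in step between genotypes.

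A list of 26 other genes of the G1 to S passage showed fewer calls. Of 23 tested in control mice, 14 had a log2 difference above 0 from HSCs to LMPPs and 9 below 0, with a median of 0.15. There 3 passed as higher (Cks1b, Ccne2 and Tfdp1) and 1 as lower (Cdkn2d), where 5.99% of all genes passed. Cks1b, which helps to mark p27 for destruction, went from 117 to 442 CPM (log2 difference 1.91 ± 0.33, edgeR adjusted p = 0.00347), and Ccne2, a cyclin that acts after cyclin D, from 39.8 to 161 CPM (2.02 ± 0.54, adjusted p = 0.0421). Cdkn2d, an INK4 inhibitor like Cdkn2c, went from 119 to 66.5 CPM (-0.84 ± 0.23, adjusted p = 0.0471). The count of 4 was 1 or 2 when any 1 mouse was left out and 1 to 5 over the other alternatives. In Mbd3del mice Cks1b and Tfdp1 passed at that step, where 6.74% of all genes passed. Between Mbd3del HSCs and BLPs 24 were tested, 16 above and 8 below 0, with a median of 0.72 against -0.11 for all genes. Of these, 7 passed as higher and 1 as lower, where 19.3% of all genes passed. In control mice 23 were tested over that span, 14 above and 9 below 0, with a median of 0.28 against -0.0069. There 3 passed as higher and 2 as lower, where 15.7% of all genes passed. The difference between genotypes over that span was not tested. Skp2, the partner of Cks1b, went from 14.6 to 82.8 CPM over it in Mbd3del mice (2.51 ± 0.40, edgeR adjusted p = 0.000364).

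Of 17 regulators known to act on the members, 14 were tested in control mice and 15 in Mbd3del mice between HSCs and LMPPs. In control mice 6 had a log2 difference above 0 and 8 below 0. Of them 1 passed as higher and 2 as lower in LMPPs, where 5.99% of all genes passed. In Mbd3del mice 4 lay above 0 and 11 below, and 2 passed as higher and 2 as lower, against 6.74% of all genes. Myc rose and Mycn and Foxo1 fell in both. Foxo1, of a family that can raise Cdkn1b, went from 49.8 to 8.91 CPM in control mice (-2.48 ± 0.59, edgeR adjusted p = 0.0248) and from 53.6 to 7.30 CPM in Mbd3del mice (-2.88 ± 0.81, adjusted p = 0.0454). From HSC to BLP 16 were tested in control mice, and 2 passed as higher and 3 as lower, against 15.7% of all genes. In Mbd3del mice 17 were tested, and 3 passed as higher and 4 as lower, against 19.3%. Mycn had the smallest adjusted p in both, at log2 differences of -4.04 and -5.43 (edgeR adjusted p = 9.91e-06 and 6.67e-05). Egr1 fell from 123 to 5.76 CPM in control mice (adjusted p = 0.00705). Foxo1 was higher in BLPs of Mbd3del mice (1.32 ± 0.35, adjusted p = 0.0139) and was not among the calls in control mice. Over the same span Foxo3 fell from 379 to 179 CPM in control mice (-1.11 ± 0.28, adjusted p = 0.0151) and from 286 to 129 CPM in Mbd3del mice (-1.14 ± 0.27, adjusted p = 0.00808). Hes1, a Notch target that can repress Cdkn1b, rose from 1.14 to 23.8 CPM in control and from 5.22 to 43.5 CPM in Mbd3del mice (adjusted p = 0.00835 and 0.0122). The part of these regulators in the levels of Cdkn1b or any other member was not tested.

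Markers of other cell types differed between the populations too. The summed level of the myeloid list (6 genes) went from 103 to 420 CPM in control HSCs to 477 to 1053 CPM in control LMPPs, with Mpo at a mean of 512 CPM, while Elane was at 0 in these LMPPs. In Mbd3del mice the ranges of this list overlapped, at 42.1 to 1354 CPM in HSCs and 539 to 1857 CPM in LMPPs. The megakaryocyte list (4 genes) was highest in HSCs, at 50.5 to 148 CPM, beside Cdkn1c. The T and NK list (3 genes) reached 1228 CPM through Nkg7, with Cd3e at 0 in each library, and the mature B list (4 genes) reached 82.0 CPM, also with Ms4a1 at 0. The stromal and endothelial list (4 genes) rose from 17.6 to 104 CPM in HSCs to 169 to 398 CPM in BLPs through Pecam1. The part of these cells in the members' values was not tested.

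As a description across the 40 libraries, the gene whose log2 level ran most closely with each member was found among 10173 genes averaging at least 5 CPM. Pearson's r was 0.96 between Cdk6 and H2afy, 0.96 between Cdkn1c and Trim47, 0.91 between Cdkn1a and Xrcc6 and 0.90 between Cdk4 and Cmtm7. It was 0.84 between Cdkn1b and Gm12940, 0.78 between Ccnd3 and Magee2, and 0.59 to 0.74 for the nearest genes of Ccnd1 (Dpp7), Ccnd2 (Pygm), Cdkn2c (Tmem251) and Rb1 (Cenpw). The 40 libraries fall into 4 populations and each mouse gave 4 of them, so they are not independent points.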

How the data were processed

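RNA of sorted pools was sequenced by Smart-seq2. The deposited values are raw counts per gene, which the authors made with STAR 2.5.2b and HTSeq 0.6.1p1 on GRCm38, per the submitters' processing notes; annotation and strand setting: not given in the sources used here. Of 128910 rows, 79325 count repeat regions (0.205% to 2.28% of a library) and were left out. The 10 genes and the lists were chosen with earlier results of these data known.

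Each comparison was fitted on its own libraries with edgeR 4.0.16 in R 4.3.3: TMM scaling, filterByExpr (minimum count 10, total 15), robust quasi-likelihood F test with the edgeR 3 estimator, and Benjamini-Hochberg adjustment over all genes tested, threshold 0.05. The fits were tested on simulated data. Levels are CPM with TMM factors of 0.804 to 1.22. DESeq2 1.42.0 and the other alternatives are given in the closing section. The numbers pair libraries because each mouse gave all 4 populations; deviations of same-mouse libraries from their group means correlated at -0.19 to 0.22. Text names all 10 genes and, of each list, up to 4 genes with the smallest adjusted p per comparison. Intervals cover counting error only.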

Additional observations from a re-analysis of the deposited data

Results flagged for a closer look

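In 8 of 79 sets of 5 libraries (1 gene in 1 group) a single library lay far from the other 4 by Dixon's test at the 95% level. For normally spread values chance alone does this in about 1 of 20 sets. CPM near 0 need not be spread so, and a single count against 0 is always flagged, so the 8 cannot be set against that rate. In control HSCs Ccnd2 was 387 CPM in mouse10372 against 545 to 607 in the others, Cdkn1b was 98.3 CPM in mouse10381 against 182 to 188, and Cdkn2c was 27.1 CPM in mouse10357 against 0 to 4.93. In Mbd3del HSCs Cdkn1c was 58.0 CPM in mouse10365 against 9.34 to 22.5, and Rb1 was 13.7 CPM in mouse10360 against 31.9 to 39.0. In control BLPs Cdkn1a was 191 CPM in mouse10380 against 62.7 to 96.1. In ALPs Cdkn1c was 1.81 CPM in control mouse10372 against 0 to 0.465, and 0.145 CPM, a single count, in Mbd3del mouse10360 against 0 in the others.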

How the results depend on the processing

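Of 2064 values of single members under the alternatives, 2028 stayed on their side of the threshold, 20 lost a call, 16 gained one and 0 called values reversed. Among the 2028, at least 103 changed sign, having passed in neither fit. From HSC to LMPP in control mice the count of 3 members was 5 with the newer edgeR 4 estimator and 5 with DESeq2, both adding Ccnd2 and Cdkn1a, 2 without mouse10372 and mouse10381, and 1 to 4 when 1 mouse was left out (1 without mouse10357 or mouse10381). From LMPP to ALP in control mice the count of 0 was 1 with the newer estimator (Cdkn1a), 2 with DESeq2 and 1 in the joint fit of 40 libraries (Ccnd2), and 0 when 1 mouse was left out. From HSC to BLP in control mice the count of 5 was 3 to 5 when 1 mouse was left out (3 without mouse10357 or mouse10380). With the mouse as replicate block it was 4, since Cdkn1b had an edgeR adjusted p of 0.0654; the block changed no other member's call. From LMPP to ALP in Mbd3del mice the count of 2 was 0 to 2 when 1 mouse was left out (0 without mouse10360 or mouse10361, 1 without mouse10365 or mouse10376). From HSC to BLP in Mbd3del mice Cdkn2c and Rb1 passed with the newer estimator (adjusted p = 0.0118 and 0.0310). The counts between genotypes and of steps that differ between them were 0 under each alternative run. Calls over all genes in control mice were 662 from HSC to LMPP and 102 from LMPP to ALP. They were 431 to 738 and 39 to 98 when 1 mouse was left out. Over the other alternatives they were 437 to 1682 and 31 to 452. The causes were not tested. Depth limits Cdkn1c outside HSCs, Cdkn2c and Cdkn1a in HSCs, where libraries hold few counts.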
